A study of Homo sapiens with 11 samples.

Results

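The interaction between PPP2R1A genotype and KAT6A inhibition was measured by RNA-seq in HEC50B, an endometrial cancer cell line, using all 11 of the 11 libraries of the series. The contrast is the log2 response to WM1119 in R183W cells less the log2 response in WT cells. A negative value means that a gene fell more, or rose less, in R183W cells, and genes with an adjusted p under 0.05 were called. There were 3 libraries of parental R183W cells with vehicle, 2 of R183W cells with the KAT6A inhibitor WM1119, 3 of cells labelled CRISPR WT with vehicle and 3 of WT cells with WM1119. The inhibitor was given at 50 µM, and both treatments lasted 4 days. The labels describe the lines as isogenic but do not say from how many clones the WT line came, what the vehicle was, or whether the numbered replicates were separate cultures. Every p-value below therefore reflects the scatter among these libraries, which may be technical.

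As background, PPP2R1A is the scaffold on which the catalytic and regulatory subunits of the phosphatase PP2A assemble, and R183W is a recurrent substitution in it. KAT6A is a lysine acetyltransferase of histone H3 that works in a complex with BRPF, ING and MEAF6 proteins and supports proliferation in several cell types. Entry into S phase depends on E2F transcription factors, which RB proteins restrain and which switch on genes for origin licensing, DNA synthesis and nucleotide supply. At an origin, ORC, CDC6 and CDT1 load the MCM helicase, and CDC45 and GINS then activate it. E2F proteins bind short GC-rich promoter elements.

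The promoter sequences of called genes that carried an E2F core are printed here because 8 of the 27 genes with a called negative interaction belonged to the DNA replication lists. Those lists held 62 of the 13980 genes tested. RefSeq windows (GRCh38.p14) from 250 bases before to 50 bases after the start were searched on both strands for TTTCCCGC, TTTGGCGC, TTTCGCGC and TTTGCCGC. Overlaps between matches were not removed. Of the 27 genes with a called negative interaction 21 had a window, as had 9 of the 13 with a called positive one. The core lay in 10 of 29 windows (34.5%) of genes with a called negative interaction, those of 10 genes. It lay in 0 of 14 windows of genes with a called positive one. It lay in 726 of 14864 windows (4.88%) of all genes tested. Of those 10 genes, 7 had a match before the start, printed 5′ to 3′ on the gene's strand with up to 30 bases on each side and the matches in capitals. DTL and DPYSL3 fall outside the rule for named genes, and are shown to complete the 7.
MCM3 chr6:52284879-52284946, minus strand: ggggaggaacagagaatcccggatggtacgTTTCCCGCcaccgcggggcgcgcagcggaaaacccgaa
MCM7 chr7:100101398-100101614, minus strand: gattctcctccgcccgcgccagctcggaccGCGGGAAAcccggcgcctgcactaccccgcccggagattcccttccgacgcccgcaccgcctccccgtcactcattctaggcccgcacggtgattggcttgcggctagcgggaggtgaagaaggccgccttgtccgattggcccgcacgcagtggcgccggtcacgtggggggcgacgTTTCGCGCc
POLA2 chr11:65261879-65261946, plus strand: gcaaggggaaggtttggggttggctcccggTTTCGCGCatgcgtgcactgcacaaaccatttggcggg
E2F1 chr20:33686386-33686448, minus strand: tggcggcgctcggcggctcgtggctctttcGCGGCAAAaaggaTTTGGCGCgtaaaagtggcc
RBL1 chr20:37095998-37096053, minus strand: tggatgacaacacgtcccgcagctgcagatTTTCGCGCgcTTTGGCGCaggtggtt
DTL chr1:212035710-212035747, plus strand: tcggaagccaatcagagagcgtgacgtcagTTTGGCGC
DPYSL3 chr5:147510230-147510297, minus strand: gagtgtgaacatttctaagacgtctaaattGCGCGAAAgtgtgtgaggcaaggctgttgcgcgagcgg
The match of MCM3 began 174 bases before the start, and those of E2F1 began 33 and 20 bases before it. In MCM7 the 2 matches began 187 and 9 bases before the start. Windows of the origin licensing list held the core in 13 of 30 cases (43.3%) and those of the replication fork list in 11 of 36 (30.6%). The CCAAT box was in 48.3% of windows of genes called negative, 35.7% of those called positive and 34.9% of all windows. The CHR core TTTGAA, an element of G2/M promoters, was in 3.45% of windows of genes called negative, 21.4% of those called positive and 10.3% of all windows. The antioxidant response core, written TGACNNNGC, was in 7.14% of windows of genes called positive, 20.7% of those called negative and 14.4% of all windows. These letters are a description of the windows and do not show that a factor was bound.

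Library totals ran from 2609922 to 6065149 counts, and 3 counts, the level that a count of 0 allows, equalled 0.495 to 1.24 CPM (counts over the TMM-adjusted library total). These floors cover counting error only. WT WM1119 library 3 was the shallowest and stood apart: it correlated with its group at 0.917 and 0.937, against 0.957 to 0.975 for the other pairs within groups, across genes. Calls and list medians that turn on it are given with and without it. Of the epithelial markers, KRT8, KRT18, EPCAM and PAX8 were at 37.1 CPM or more in all 11 libraries, whereas KRT19 was at 0 in 10 of them and CDH1 at 0 in 6. Leukocyte and erythroid markers were at or near 0, apart from CD68 at 2.57 to 10.9 CPM. Of the endothelial markers only ESAM passed the low-count filter, at means of 41.1 and 22.0 CPM in R183W vehicle and WM1119 and 8.66 and 8.41 in WT vehicle and WM1119 libraries, while CDH5, KDR, TEK and CLDN5 were at 0 in all 11. KAT6A averaged 170.4 ± 26.3 CPM in R183W vehicle, 179 ± 7.002 in R183W WM1119, 149 ± 28.8 in WT vehicle and 223 ± 53.9 in WT WM1119 libraries. Means are given ± SD, with n = 3 libraries per group and n = 2 for R183W WM1119. The KAT6A interaction was -0.51 (SE 0.28, adjusted p = 0.625) and that of PPP2R1A was -0.45 (SE 0.26, adjusted p = 0.651) in edgeR's quasi-likelihood test with Benjamini-Hochberg adjustment, so neither was called. The inhibitor acts on the protein and the substitution alters the protein, so these transcript levels do not check the labels.

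The inhibitor response differed by genotype for 40 of 13980 genes, or 0.286%. The interaction was negative for 27 of them (0.193%) and positive for 13 (0.0930%). At an unadjusted p under 0.05, 727 genes (5.20%) were negative and 573 (4.10%) positive. Of the 27, 8 were DNA replication genes, from lists that held 62 of the 13980 genes tested. Each of the 8 had an estimate below 0 on WM1119 in R183W cells and above 0 in WT cells. The 13 included the matrix gene FN1, the Notch ligand JAG1 and the polyamine enzyme gene SAT1, which rose in R183W cells and fell in WT cells. The count was sensitive to single libraries, and 9 of the 11 moved it by over 1.5 times. It was 192 without WT WM1119 library 3, and those 192 held all 40. It was 0 when the second or the third R183W vehicle library was left out, where edgeR still gave 1076 and 1125 genes at an unadjusted p under 0.05. It was 2 and 1 when the first and the second treated R183W libraries were left out. Each of the 33 called genes described under the rule for named genes lost its call when any 1 of these 4 R183W libraries was left out. Without the first R183W vehicle library the count was 20, without the second treated WT library 13, and without the second and the third WT vehicle libraries 12 and 13. For those 33 genes, none of 627 values under other settings or with a library left out had the opposite sign. These genes were chosen by their calls and the settings share libraries, so the kept signs are not separate support.

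**Figure D1:**
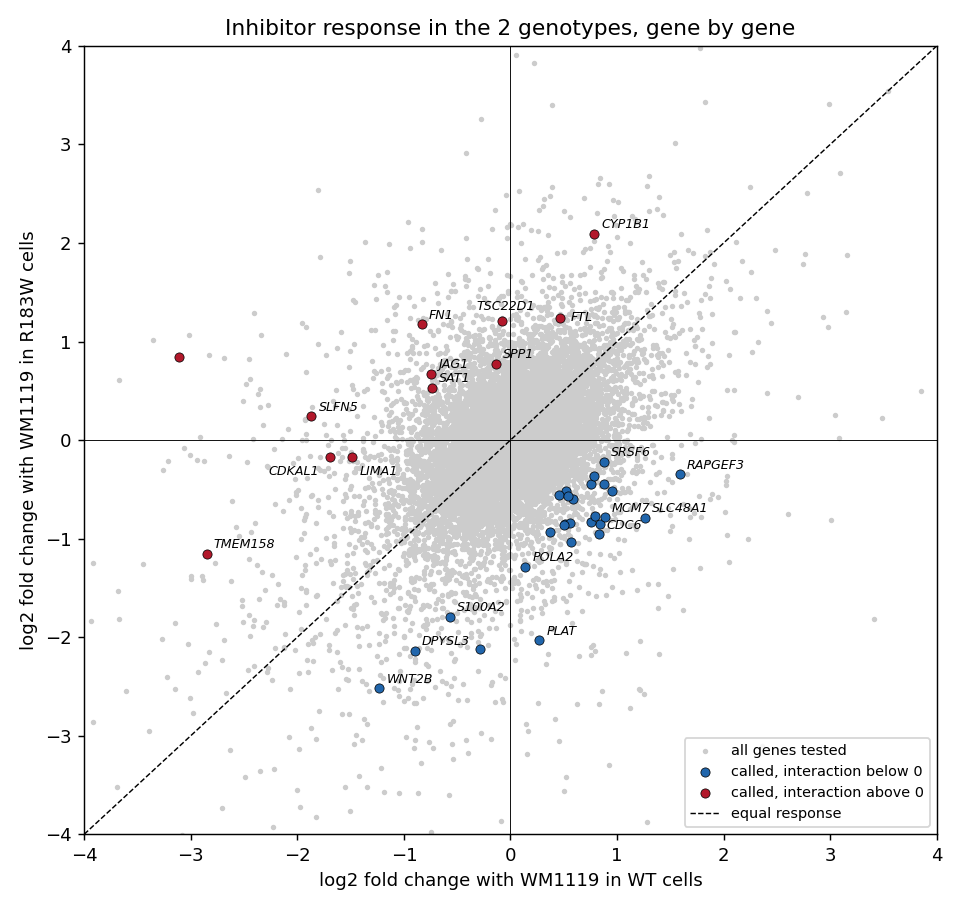
Each point is a gene, with its log2 fold change on WM1119 in WT cells on the x axis and in R183W cells on the y axis; blue and red mark genes called with a negative and a positive interaction, and the dashed line marks equal responses. Most blue points lie at the lower right, where a gene fell in R183W cells and rose in WT cells; genes beyond 4 log2 units on either axis, and 1 called gene at 0 counts in all WT WM1119 libraries, lie outside the plot.

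Each of the 40 responses was then read within its line. Across all genes WM1119 raised 278 (1.99%) and lowered 371 (2.65%) in R183W cells, and raised 326 (2.33%) and lowered 354 (2.53%) in WT cells. These contrasts share libraries with the interaction and describe it without adding support. Of the 27 genes with a negative interaction, 8 fell in R183W cells and rose in WT cells with both changes called. A further 8 had a called fall in R183W cells alone, another 8 a called rise in WT cells alone, and 3 fell in both lines. Of the 13 with a positive interaction, 3 rose in R183W cells and fell in WT cells, 2 rose in both, 1 fell in both, 2 had a called rise in R183W cells alone and 5 a called fall in WT cells alone. A call in a single line does not show by itself that the lines differ; the interaction test does.

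For most genes with a negative interaction, the order of the 4 group means was crossed rather than graded. Among the 27 genes with a negative interaction, R183W vehicle was the highest group for 14 (51.9%) and WT WM1119 for 10 (37%), while R183W WM1119 was the lowest for 16 (59.3%) and WT vehicle for 11 (40.7%). For 22 of the 27, R183W cells were above WT cells under vehicle and below them under WM1119. Over all genes tested each group was the highest for 21.4% to 28.3% and the lowest for 21.2% to 29.3%. Among the 13 genes with a positive interaction, WT vehicle was the highest group for 7 and R183W vehicle the lowest for 7. Some of the 13 crossed, such as SAT1, while others, such as FN1 and JAG1, stayed lower in R183W cells under both treatments. The sign of an interaction favours some orders of the group means, so these shares describe the levels and test nothing.

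Among the genes with called changes of opposite sign were MCM3, MCM7 and CDC6, of the helicase and its loading. MCM3, a subunit of the replicative helicase, measured 295, 296 and 273 CPM in R183W vehicle libraries, 158 and 165 in R183W cells with WM1119, 189, 151 and 151 in WT vehicle libraries and 228, 246 and 357 in WT cells with WM1119. Each R183W vehicle library lay above each R183W WM1119 library, and each WT vehicle library lay below each WT WM1119 library. The interaction was -1.59 (SE 0.25, adjusted p = 0.02), from a log2 change of -0.83 in R183W cells and 0.76 in WT cells (edgeR, as for all adjusted p-values here). MCM7, another subunit, measured 217, 155 and 145 CPM in R183W vehicle libraries, 109.7 and 90.3 in R183W cells with WM1119, 87.9, 87.7 and 83.2 in WT vehicle libraries and 143, 165 and 171 in WT cells with WM1119. Neither line's treated and untreated libraries overlapped. Its interaction was -1.67 (SE 0.24, adjusted p = 0.0148), the sum of a fall by 0.78 and a rise of 0.88 on the log2 scale. In bulk RNA a smaller share of cells expressing these S phase genes cannot be told apart from less RNA per cell.

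CDC6, which loads the helicase with ORC and CDT1, measured 49.3, 53.9 and 42.6 CPM in R183W vehicle libraries, 29.5 and 20.2 in R183W cells with WM1119, 23.9, 17.9 and 25.6 in WT vehicle libraries and 38.4, 42.1 and 39.6 in WT cells with WM1119. Again no treated library overlapped an untreated library of its line. The interaction was -1.79 (SE 0.29, adjusted p = 0.02298). MCM10, which links the helicase to polymerase alpha, averaged 77.9 ± 0.103 and 43.2 ± 3.02 CPM in R183W cells without and with WM1119, and 43.3 ± 5.96 and 62.1 ± 11.8 in WT cells. Its interaction was -1.37 (SE 0.25, adjusted p = 0.0317); the fall in R183W cells was called (adjusted p = 0.0188) and the change in WT cells was not (adjusted p = 0.0871). With each library left out in turn, MCM3 lost its call in 6 of 11 fits, MCM7 in 4, CDC6 in 7 and MCM10 in 7. The highest adjusted p was 0.2596, for MCM10; each call was lost when any 1 of the 4 R183W libraries named above was left out.

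**Figure D2:**
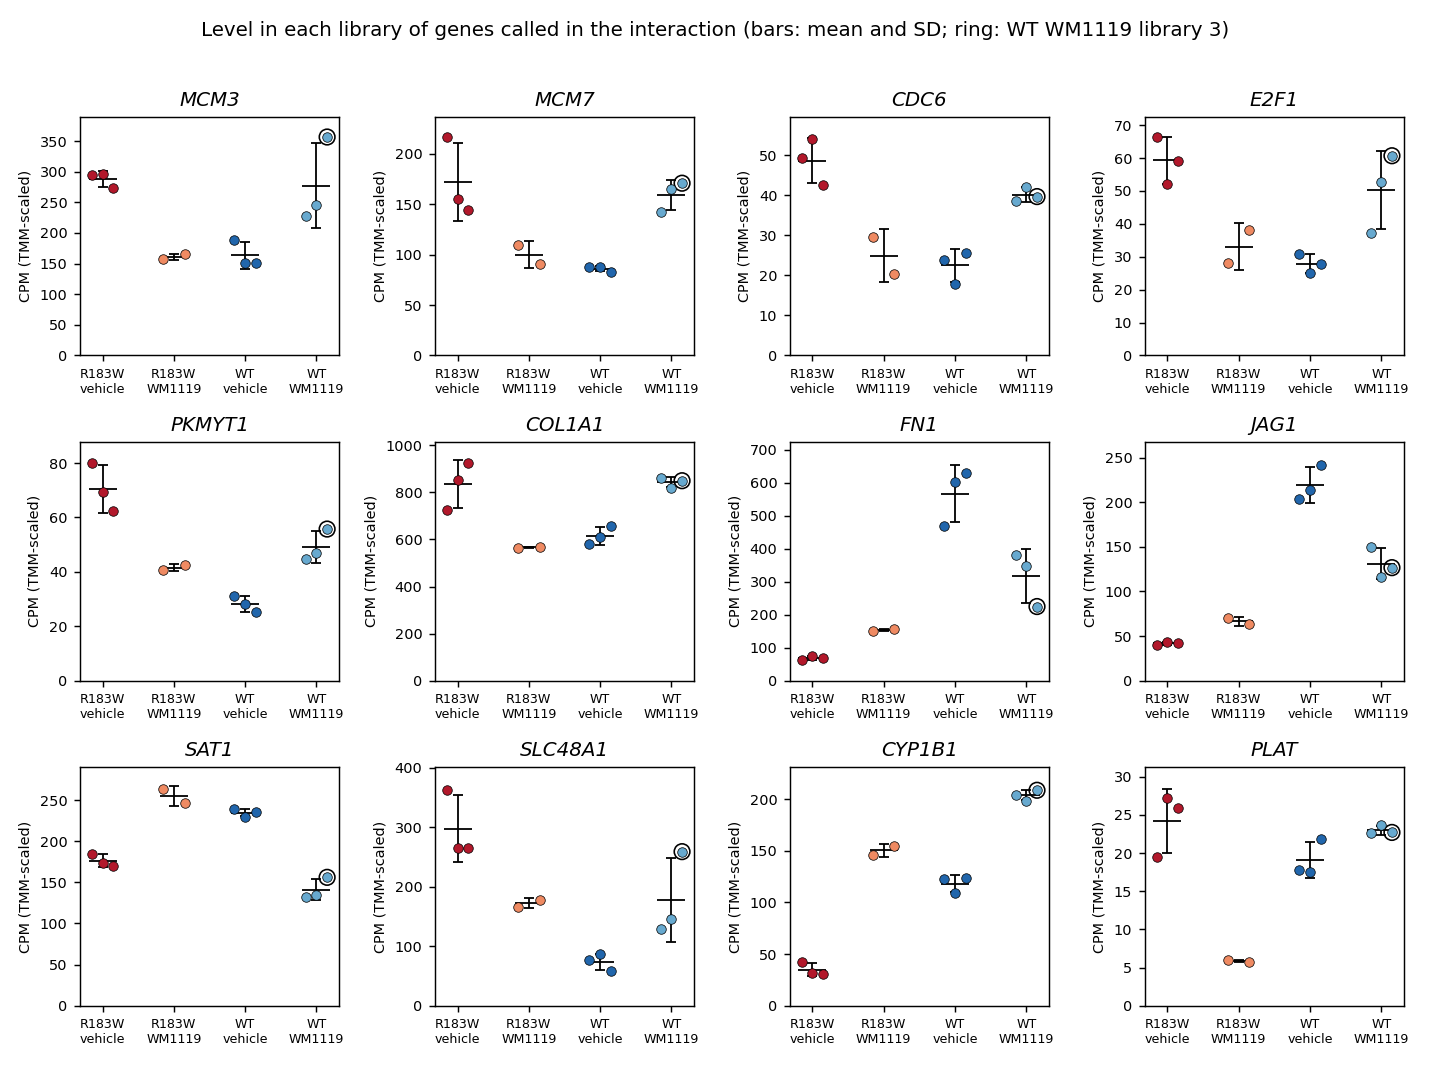
CPM of 12 genes called in the interaction, 1 point per library, in the 4 groups on the x axis; horizontal marks and error bars are the group mean and SD, and a ring marks WT WM1119 library 3. MCM3, MCM7, CDC6, E2F1, PKMYT1 and COL1A1 cross from high to low in R183W cells and from low to high in WT cells, and FN1, JAG1 and SAT1 move the opposite way.

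Of the origin licensing and firing list, all 27 members passed the low-count filter and 4 were called, MCM3, MCM7, CDC6 and MCM10, all negative, against 0.193% of all genes. The interaction was below 0 for 26 of the 27, against 50.8% of all genes, with DBF4, the activator of the CDC7 kinase, at 0.35. Their median was -1.08, against -0.0086 over all genes, and 17 were negative at an unadjusted p under 0.05, against 5.20%. The median response was -0.50 in R183W cells, where 5 members fell, against 2.65% of all genes. In WT cells it was 0.55, and 8 members rose, against 2.33% of all genes. The 5 were the 4 called genes and GINS4, a subunit of the helicase activator; the 8 were MCM3, MCM7, CDC6, CDT1 (1.12 on the log2 scale), MCM5 (1.23), MCM4 (1.00), RECQL4 (1.07) and ORC6 (0.81). The 6 ORC genes, which mark origins, had interactions from -1.06 to -0.24 and none was called. Without WT WM1119 library 3 the median was -1.05 and 11 members were called, all negative. With DESeq2 11 were called, and edgeR called 0 when any 1 of the 4 R183W libraries named above was left out, with 12 to 16 negative at an unadjusted p under 0.05. The count was 2 without the first R183W vehicle library, and 1 and 2 without the second and the third WT vehicle libraries.

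Other helicase subunits had negative estimates that were not called. MCM4 measured 127, 124 and 129.8 CPM in R183W vehicle libraries, 79.7 and 96.95 in R183W cells with WM1119, 72.1, 58.1 and 58.9 in WT vehicle libraries and 99.9, 104 and 176 in WT cells with WM1119, and its interaction of -1.53 (SE 0.30, adjusted p = 0.05296) missed the threshold. MCM5 measured 106, 127 and 236 CPM in WT WM1119 libraries, the highest from library 3, and its interaction was -1.54 (SE 0.41, adjusted p = 0.182). MCM2 measured 70.9, 55.5 and 26.4 CPM in the same libraries and MCM6 63.7, 45.5 and 26.4, with library 3 the lowest for both. Library 3 was thus not shifted one way: it was high for MCM3, MCM4 and MCM5 and low for MCM2, MCM6, CDC45, FEN1 and PCNA. Without it the adjusted p was 0.00252 for MCM4, 0.0452 for MCM5, 0.0206 for MCM2 and 0.0321 for MCM6. Among gene families grouped by symbol stem with at least 6 members tested, MCM was the only family with at least 3 called members and 25% called. It had 3 of 11 called (27.3%), with a median of -1.32. The 11 share only a symbol stem and include MCM3AP and the antisense gene MCM3AP-AS1, so they are not all helicase subunits.

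The replication fork list held 36 genes, of which 35 were matched and tested. Its 4 called members, all negative, were CHAF1A, POLA2, CLSPN and RFC2, against 0.193% of all genes. Of the 35 estimates 33 were below 0, against 50.8%, the others being POLD4 at 0.68 and DNA2 at 1.17. The median was -0.85 and 19 members were negative at an unadjusted p under 0.05, against 5.20% of all genes. The median response was -0.44 in R183W cells and 0.32 in WT cells. POLA2, the accessory subunit of the primase polymerase, measured 47.5, 47.5 and 48.9 CPM in R183W vehicle libraries, 20.9 and 18.4 in R183W cells with WM1119, 29.9, 27.3 and 33.5 in WT vehicle libraries and 35.8, 35.2 and 28.1 in WT cells with WM1119. It fell in R183W cells (log2 -1.28, adjusted p = 0.00175), while its WT libraries overlapped between treatments (log2 0.14, adjusted p = 0.671); the interaction was -1.42 (SE 0.25, adjusted p = 0.0274). CHAF1A, which deposits histones on new DNA, showed the opposite division of calls. It averaged 126 ± 13.5 and 87.98 ± 0.123 CPM in R183W cells without and with WM1119, and 81.4 ± 14.1 and 158 ± 31.9 in WT cells. The rise in WT cells was called (log2 0.95, adjusted p = 0.00631). In R183W cells each treated library lay below each vehicle library (log2 -0.51), but the fall was not called (adjusted p = 0.1495). The interaction was -1.47 (SE 0.25, adjusted p = 0.0274). Over the 11 fits with a library left out, POLA2 lost its call in 9 and CHAF1A in 7, with adjusted p up to 0.257.

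CLSPN, the claspin gene of the fork checkpoint, measured 80.4, 108 and 119 CPM in R183W vehicle libraries, 54.7 and 58.3 in R183W cells with WM1119, 76.5, 88.2 and 74.5 in WT vehicle libraries and 113, 110.2 and 116 in WT cells with WM1119. Its treated R183W libraries were the lowest of the 11, and its interaction was -1.36 (SE 0.23, adjusted p = 0.0252). RFC2, of the clamp loader, averaged 37.5 ± 2.11 and 19.6 ± 0.798 CPM in R183W cells and 22.2 ± 0.364 and 28.8 ± 2.91 in WT cells, with an interaction of -1.31 (SE 0.24, adjusted p = 0.0361). CLSPN lost its call in 8 and RFC2 in 10 of 11 fits, with adjusted p up to 0.258. The clamp gene PCNA showed no such pattern: it ranged from 14.9 to 49.0 CPM within WT WM1119 libraries alone and its interaction was -0.28 (SE 0.59, adjusted p = 0.939). Members that rose in WT cells included POLD1 (log2 1.43), the ligase gene LIG1 (1.08) and POLD2 (0.71). Members that fell in R183W cells included RPA3 (log2 -1.16), which coats single-stranded DNA, and DSCC1 (-0.82). Without WT WM1119 library 3 the list's median was -0.80 with 9 called, and with DESeq2 8 were called. EdgeR called 0 when any 1 of the same 4 R183W libraries, the second treated WT library or the second or the third WT vehicle library was left out, with 15 to 17 negative at an unadjusted p under 0.05. Leaving out the first R183W vehicle library gave 2 and the first WT vehicle library 1.

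**Figure D3:**
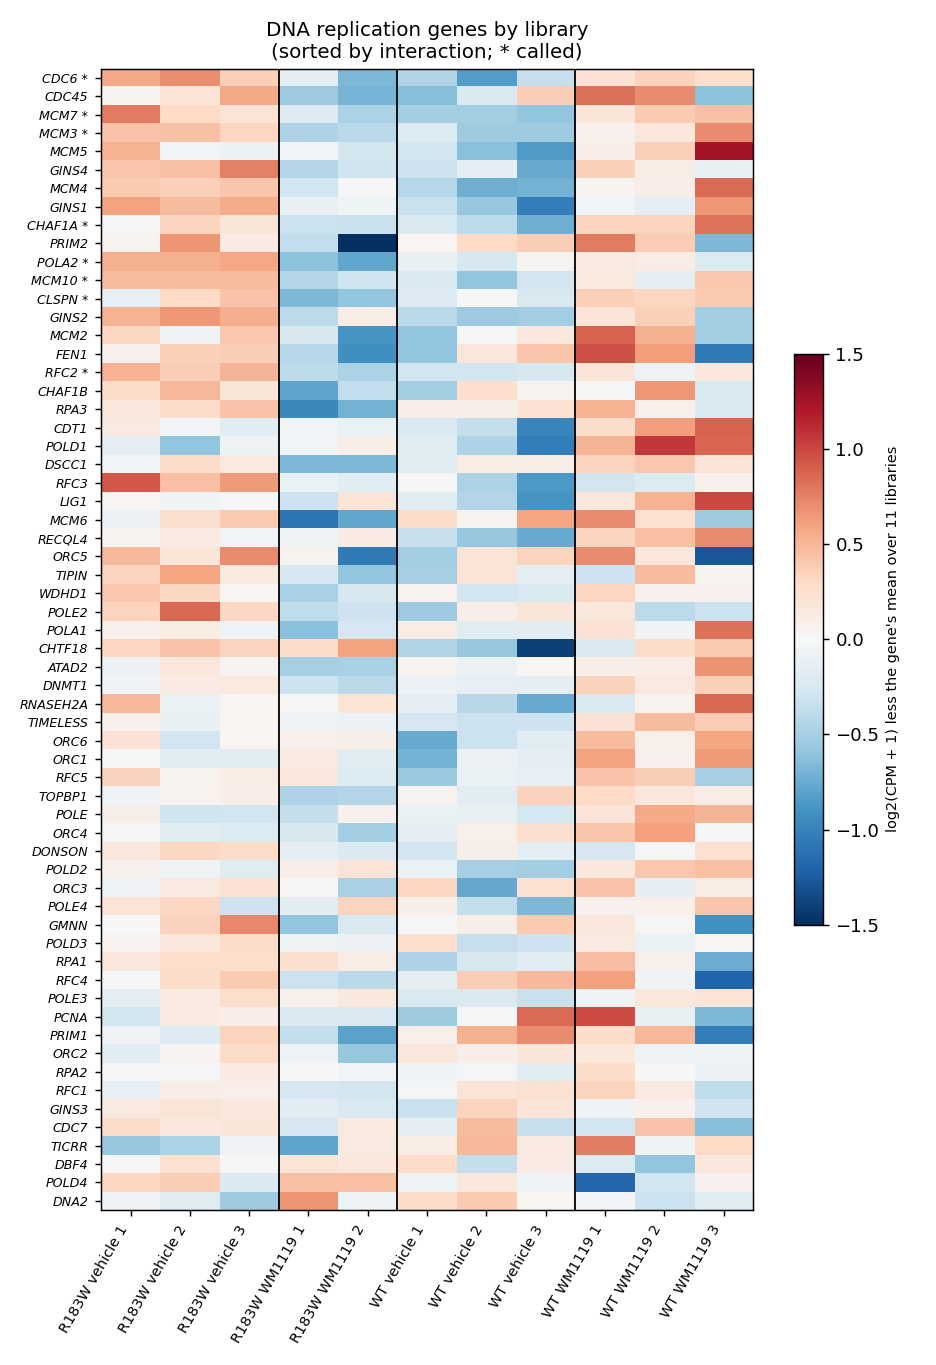
Heat map of the 62 licensing and fork genes (rows, sorted by interaction) in the 11 libraries (columns); colour is log2(CPM + 1) less the gene's mean over libraries, and asterisks mark called genes. Upper rows are red in R183W vehicle and WT WM1119 columns and blue in R183W WM1119 and WT vehicle columns; the last column, WT WM1119 library 3, departs from the other 2 of its group in several rows.

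The regulators of S phase entry gave calls of the same direction. E2F1, an activating E2F, measured 66.3, 52.2 and 59.2 CPM in R183W vehicle libraries, 28.1 and 38.1 in R183W cells with WM1119, 30.8, 25.2 and 27.9 in WT vehicle libraries and 37.3, 52.7 and 60.7 in WT cells with WM1119. The treated and untreated libraries did not overlap in either line, and the interaction was -1.68 (SE 0.30, adjusted p = 0.0313). RBL1, which encodes the RB relative p107, averaged 32.8 ± 1.97 and 18.2 ± 0.685 CPM in R183W cells without and with WM1119 and 29.5 ± 4.02 and 43.7 ± 7.68 in WT cells, with an interaction of -1.40 (SE 0.27, adjusted p = 0.0486). These were the 2 called members among 26 tested genes of the E2F, RB and cyclin E list, whose median was -0.26; 18 were below 0. That median ran from -0.45 without WT WM1119 library 3 to -0.0029 without library 1 of the same group. TK1, the thymidine salvage kinase, was the 1 called member of 15 deoxynucleotide supply genes (median -0.64, 13 below 0). It averaged 124 ± 16.3 and 90.6 ± 2.15 CPM in R183W cells and 55.6 ± 7.14 and 103 ± 12.9 in WT cells, and its interaction was -1.33 (SE 0.23, adjusted p = 0.0257). In the 11 fits that leave out a library, E2F1, RBL1 and TK1 each lost the call in 8, with adjusted p up to 0.308 for RBL1. Without WT WM1119 library 3, the calls were 3 in the E2F list and 6 in the deoxynucleotide list. Over all genes and with all libraries, 0.193% were called negative and 50.8% were below 0.

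A few checkpoint and crosslink repair genes were also called negative. PKMYT1, the kinase that holds CDK1 inactive before mitosis, measured 80.02, 69.3 and 62.5 CPM in R183W vehicle libraries, 40.6 and 42.6 in R183W cells with WM1119, 31.2, 28.02 and 25.4 in WT vehicle libraries and 44.8, 46.8 and 55.7 in WT cells with WM1119. Its levels did not overlap between treatments in either line, and the interaction was -1.56 (SE 0.24, adjusted p = 0.0189). PKMYT1 and CLSPN were the 2 called members of 18 checkpoint genes, and 15 of the 18 were below 0. FANCD2, of the Fanconi crosslink repair pathway, averaged 121 ± 4.89 and 82.1 ± 13.6 CPM in R183W cells and 96.3 ± 9.03 and 139.7 ± 11.3 in WT cells, with an interaction of -1.10 (SE 0.20, adjusted p = 0.0361). It was the 1 called member of 32 homologous recombination and Fanconi genes, of which 29 were below 0 and 17 negative at an unadjusted p under 0.05 (median -0.78; R183W response -0.52, WT response 0.33). Without WT WM1119 library 3 that list had 3 calls. Over all genes, 0.193% were called negative and 5.20% were negative at an unadjusted p under 0.05. PKMYT1 lost its call in 6 and FANCD2 in 8 of 11 fits, with adjusted p up to 0.317. Among 23 mismatch and base excision repair genes edgeR and DESeq2 called 0, with a median of -0.013 and 1 gene negative at an unadjusted p under 0.05. In mitosis and G2/M genes edgeR called 0 of 44 and DESeq2 1; the median was -0.25, 37 were below 0 and 8 were negative at an unadjusted p under 0.05. DTL and CENPX were also called, and are named here after their values were seen. DTL, an adaptor that targets CDT1 for degradation, had an interaction of -1.20 (SE 0.22, adjusted p = 0.0317), and CENPX, which also serves in the Fanconi pathway, had -1.15 (SE 0.20, adjusted p = 0.0295).

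**Figure D4:**
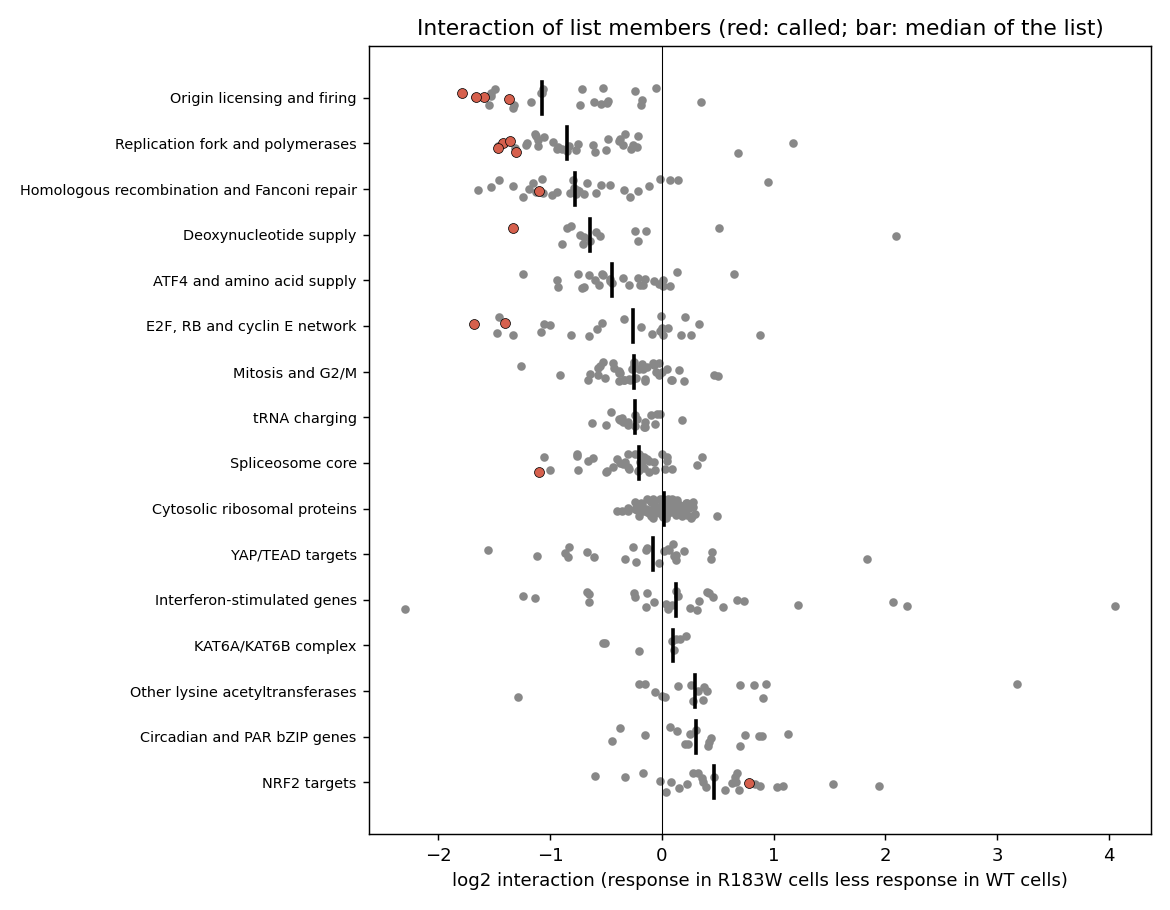
Log2 interaction (x axis) of each tested member of 16 gene lists (rows); red points are called genes and the black bar is the list's median. The licensing, fork, recombination and deoxynucleotide lists have medians from -1.08 to -0.64, the ribosomal protein list lies close to 0 and the NRF2 list has a median of 0.46.

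Genes with other roles joined this direction. SRSF6, a splicing factor, was raised in WT cells (log2 0.88, adjusted p = 0.00145) from 178 ± 21.7 to 328 ± 22.6 CPM, and averaged 222 ± 11.2 and 191 ± 15.6 in R183W cells. Its interaction was -1.10 (SE 0.19, adjusted p = 0.0257), and it was the 1 called member of 41 spliceosome genes, 34 of which were below 0 (median -0.21). Of all genes tested, 0.193% were called negative and 50.8% were below 0. MNS1, a gene of cilia and flagella, averaged 82.5 ± 1.78 and 54.5 ± 1.95 CPM in R183W cells and 57.99 ± 3.397 and 86.8 ± 7.09 in WT cells, with an interaction of -1.18 (SE 0.19, adjusted p = 0.022). Leaving out a library ended the call of SRSF6 in 8 and of MNS1 in 6 of 11 fits, with adjusted p up to 0.253. The spliceosome list had 5 calls without WT WM1119 library 3.

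COL1A1, which encodes the main chain of type I collagen, also crossed. It measured 724, 854 and 927 CPM in R183W vehicle libraries, 565 and 568 in R183W cells with WM1119, 579.7, 609 and 657 in WT vehicle libraries and 863, 819 and 849.7 in WT cells with WM1119. It was therefore highest in untreated R183W and treated WT cells, and its interaction was -1.02 (SE 0.17, adjusted p = 0.0252). COL1A1 dominates the summed level of the 10 stromal markers, which was 829 to 1050.0 CPM in R183W vehicle, 653 to 655 in R183W WM1119, 716 to 870 in WT vehicle and 945 to 1080.0 in WT WM1119 libraries. Of these markers, COL3A1, DCN and POSTN were at 0 in all 11 libraries, COL1A2 and FAP at 0 in 10 and THY1 at 0 in 7, whereas PDGFRA was at 80.9 to 184 CPM. PDGFRB, the other platelet-derived growth factor receptor gene, averaged 5.82 CPM in R183W vehicle, 0.271 in R183W WM1119, 38.5 in WT vehicle and 22.5 in WT WM1119 libraries. Its estimate was -3.53 (adjusted p = 0.168), from treated R183W levels under the counting floor. LUM was at or below 4.14 CPM. The 4 stromal markers that passed the low-count filter all had negative estimates (median -1.5), against 50.8% of all genes. COL1A1 was the 1 called, against 0.193% of all genes called negative. The part of such cells in this result was not tested. The call was lost in 8 of 11 fits, with an adjusted p up to 0.1997.

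PLAT, tissue plasminogen activator, had the largest negative interaction among the called genes. It measured 19.5, 27.2 and 25.95 CPM in R183W vehicle libraries, 5.999 and 5.74 in R183W cells with WM1119, 17.9, 17.5 and 21.8 in WT vehicle libraries and 22.6, 23.6 and 22.7 in WT cells with WM1119. The 2 treated R183W libraries were the lowest, and the other 9 ranged from 17.5 to 27.2 CPM. Its interaction was -2.30 (SE 0.32, adjusted p = 0.0148): a fall in R183W cells (log2 -2.03, adjusted p = 0.000506) without a called change in WT cells (log2 0.27, adjusted p = 0.453). It was the 1 called member of 23 genes of extracellular proteases and inhibitors, against 0.193% of all genes called negative. The median of that list was -0.19 and ran from -0.36 to -0.014 with a library left out. PKD1L1-AS1, a noncoding RNA, had the same form, averaging 20.03 ± 2.25 and 4.64 ± 1.13 CPM in R183W cells and 32.99 ± 6.67 and 27.0 ± 2.31 in WT cells (interaction -1.84 (SE 0.34, adjusted p = 0.04204)). The sources used here do not say whether counting used strand, so reads of this antisense gene and of its partner may not have been separated. PLAT lost its call in 4 of 11 fits (adjusted p up to 0.103) and PKD1L1-AS1 in 9 (up to 0.399).

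Some genes fell with the inhibitor in both lines, but further in R183W cells. WNT2B, a WNT ligand, measured 216, 202 and 237 CPM in R183W vehicle libraries, 35.99 and 40.2 in R183W cells with WM1119, 219.8, 224 and 245 in WT vehicle libraries and 100.2, 90.4 and 103 in WT cells with WM1119. R183W less WT was -0.074 log2 units without drug (adjusted p = 0.728) and -1.36 with it (adjusted p = 6.77e-05). The log2 change was -2.52 in R183W cells and -1.23 in WT cells, and the interaction was -1.29 (SE 0.19, adjusted p = 0.0148). S100A2, a calcium-binding protein gene, measured 182.8, 161 and 159 CPM in R183W vehicle libraries, 44.9 and 51.9 in R183W cells with WM1119, 142, 135 and 138 in WT vehicle libraries and 96.6, 93.5 and 90.01 in WT cells with WM1119. Its log2 change was -1.79 in R183W and -0.57 in WT cells, with an interaction of -1.23 (SE 0.18, adjusted p = 0.0174). DPYSL3, a cytoskeletal adaptor gene named here because it completes this set of 3, fell by 2.14 and 0.90 on the log2 scale, and its interaction of -1.24 (SE 0.24, adjusted p = 0.0499) lay at the threshold. WNT2B lost its call in 4 and S100A2 in 5 of 11 fits, with adjusted p up to 0.155.

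SLC48A1, a heme transporter gene, and RAPGEF3, which encodes the cAMP sensor EPAC1, differed between the lines mainly without drug. SLC48A1 measured 363, 266 and 265 CPM in R183W vehicle libraries, 167 and 178 in R183W cells with WM1119, 76.3, 86.5 and 59.3 in WT vehicle libraries and 129, 146 and 259 in WT cells with WM1119. Under vehicle it was 2.01 log2 units higher in R183W cells (adjusted p = 0.000106), and under WM1119 the genotypes differed by -0.037 (adjusted p = 0.952). Its interaction was -2.05 (SE 0.36, adjusted p = 0.0274). RAPGEF3 followed with 103, 103 and 95.7 CPM in R183W vehicle libraries, 75.1 and 83.4 in R183W cells with WM1119, 26.6, 24.8 and 16.6 in WT vehicle libraries and 49.6, 64.5 and 91.7 in WT cells with WM1119, and its interaction was -1.93 (SE 0.32, adjusted p = 0.0252). For both genes WT WM1119 library 3 was the highest of its group. These genes overlap on opposite strands in RefSeq, and it is unknown here whether counting used strand, so their values may not be independent. SLC48A1 lost its call in 9 and RAPGEF3 in 8 of 11 fits, with adjusted p up to 0.209; without WT WM1119 library 3 the adjusted p was 0.00192 and 0.00236.

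FN1, JAG1 and SAT1 rose with WM1119 in R183W cells and fell with it in WT cells. FN1, fibronectin, measured 61.05, 73.4 and 69.6 CPM in R183W vehicle libraries, 151 and 157 in R183W cells with WM1119, 468, 603 and 628 in WT vehicle libraries and 379.6, 347 and 225 in WT cells with WM1119. None of the 4 groups overlapped; FN1 stood higher in WT than in R183W cells, and the gap went from -3.06 to -1.05 log2 units (R183W less WT). Its interaction was 2.01 (SE 0.27, adjusted p = 0.0148). JAG1, a Notch ligand, measured 39.9, 43.02 and 42.4 CPM in R183W vehicle libraries, 69.8 and 63.1 in R183W cells with WM1119, 203, 214 and 242 in WT vehicle libraries and 150.5, 116 and 127 in WT cells with WM1119, again with no overlap between groups. The gap between genotypes went from -2.40 to -0.98 log2 units, and the interaction was 1.41 (SE 0.20, adjusted p = 0.0148). SAT1, which acetylates spermidine and spermine for export and breakdown, measured 185, 174 and 169.5 CPM in R183W vehicle libraries, 263 and 246 in R183W cells with WM1119, 239, 229.8 and 236 in WT vehicle libraries and 132, 135 and 156 in WT cells with WM1119. Its groups did not overlap either, and the genotypes changed order, from -0.41 log2 units under vehicle (adjusted p = 0.0275) to 0.85 under WM1119 (adjusted p = 0.000876), and the interaction was 1.27 (SE 0.17, adjusted p = 0.0148). FN1, JAG1 and SAT1 each lost the call in 4 of 11 fits, those that left out 1 of the 4 R183W libraries named above, with adjusted p up to 0.131.

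Genes that rose further in R183W cells included FTL and CYP1B1. FTL, the ferritin light chain, measured 922, 826 and 880.4 CPM in R183W vehicle libraries, 2051 and 2091 in R183W cells with WM1119, 966, 971 and 896 in WT vehicle libraries and 1218, 1346 and 1349 in WT cells with WM1119. The vehicle levels of the lines overlapped, and the treated R183W libraries were the highest of the 11. Its interaction was 0.78 (SE 0.15, adjusted p = 0.0486); FTL has many processed pseudogenes with which reads may have been shared. CYP1B1, a target of the aryl hydrocarbon receptor, measured 42.6, 32.1 and 30.4 CPM in R183W vehicle libraries, 146 and 155 in R183W cells with WM1119, 123, 109 and 123 in WT vehicle libraries and 204, 199 and 208 in WT cells with WM1119. R183W less WT was -1.75 log2 units under vehicle and -0.44 under WM1119 (adjusted p = 0.0993), with an interaction of 1.31 (SE 0.21, adjusted p = 0.0201). SPP1, osteopontin, averaged 492 ± 14.8 and 841 ± 26.03 CPM in R183W cells and 544 ± 26.5 and 495 ± 32.4 in WT cells, with an interaction of 0.91 (SE 0.15, adjusted p = 0.0252). TSC22D1, a leucine zipper factor gene, averaged 28.5 ± 2.799 and 65.96 ± 5.39 in R183W and 32.3 ± 2.27 and 30.4 ± 2.65 in WT cells, and its interaction was 1.29 (SE 0.23, adjusted p = 0.0312). Treated R183W libraries were the highest for SPP1 and TSC22D1 too. In the 11 fits FTL lost its call in 10, SPP1 and TSC22D1 each in 9 and CYP1B1 in 6, with adjusted p up to 0.295.

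FTL was the 1 called member of 27 NRF2 targets, genes of antioxidant defence, iron storage and detoxification, against 0.0930% of all genes called positive. Of the list, 23 estimates were above 0 and 4 below; 10 were positive at an unadjusted p under 0.05, against 4.10% of all genes, and 1 negative, and the median was 0.46. WM1119 raised 9 members in R183W cells and 3 in WT cells, against 1.99% and 2.33% of all genes, with median responses of 0.59 and 0.17. DESeq2 called 3 members, and edgeR called 2 without WT WM1119 library 3 (median 0.39). CYP1B1 was the 1 called gene of 6 on the aryl hydrocarbon receptor axis (median 0.61).

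CDKAL1 and LIMA1 had a called change in WT cells alone, and TMEM158 fell further in WT cells. CDKAL1, a tRNA-modifying enzyme gene, measured 34.3, 36.6 and 30.8 CPM in R183W vehicle libraries, 28.6 and 31.7 in R183W cells with WM1119, 133, 134 and 118 in WT vehicle libraries and 42.4, 40.1 and 36.3 in WT cells with WM1119. The untreated WT libraries stood alone above the other 8. The WT fall of -1.69 log2 units (adjusted p = 1.39e-05) against -0.17 in R183W cells gave an interaction of 1.52 (SE 0.21, adjusted p = 0.0148). TMEM158, a gene first described as induced by RAS signalling, measured 37.3, 31.5 and 31.4 CPM in R183W vehicle libraries, 14.4 and 15.7 in R183W cells with WM1119, 133, 137 and 145 in WT vehicle libraries and 20.9, 22.6 and 12.8 in WT cells with WM1119. It fell in both lines, to levels that overlapped, from unequal starting levels, and its interaction was 1.70 (SE 0.28, adjusted p = 0.0252). LIMA1, an actin-binding protein gene, averaged 93.3 ± 4.203 and 82.97 ± 5.85 CPM in R183W cells and 123 ± 13.8 and 43.98 ± 6.75 in WT cells, so treated WT cells were the lowest (interaction 1.32 (SE 0.21, adjusted p = 0.0239)). CDKAL1 lost its call in 4 and TMEM158 and LIMA1 each in 7 of 11 fits, with adjusted p up to 0.1997.

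SLFN5, a member of the interferon-inducible schlafen family, measured 12.9, 11.3 and 12.6 CPM in R183W vehicle libraries, 12.2 and 16.9 in R183W cells with WM1119, 23.7, 17.7 and 12.98 in WT vehicle libraries and 4.17, 5.39 and 5.37 in WT cells with WM1119. It fell in WT cells (adjusted p = 0.00214), its change in R183W cells was 0.24 log2 units (adjusted p = 0.697), and the interaction was 2.11 (SE 0.40, adjusted p = 0.0475). Its call was lost in 9 of 11 fits, with adjusted p up to 0.317. An ID that found no symbol, ENSG00000236933, had 0 counts in all 3 treated WT libraries against 44.2, 39.8 and 41.8 CPM in untreated ones. Taking 3 counts over the group as the floor (0.275 CPM), it was at least 152-fold lower with the inhibitor in WT cells. In treated R183W cells it measured 55.4 and 11.8 CPM, so these libraries disagreed. Its interaction was 9.83 (SE 1.31, adjusted p = 0.0148), a size that is uncertain because 1 group was at 0 counts. The cause of the 0 counts was not tested. The other called ID without a symbol, ENSG00000034063, had a negative interaction of -1.60 (SE 0.27, adjusted p = 0.0252). Neither ID could be matched to a gene list, so the list counts leave both out. Both were chosen after their values were seen.

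Among 30 matrix genes FN1 was called with a positive and COL1A1 with a negative interaction, and the median was -0.072 (0.013 without WT WM1119 library 3). The mesenchymal, actin, and Notch and WNT target lists each had 1 called member, FN1, LIMA1 and JAG1, of 13, 26 and 19 tested. FN1 was thus counted in the matrix and the mesenchymal list. Of all genes tested, 0.193% were called negative and 0.0930% positive. The lists that follow had no call in edgeR. Over all genes, 5.20% were negative and 4.10% positive at an unadjusted p under 0.05. ATF4 targets and amino acid supply had 0 called of 27, 22 below 0 and 11 negative at an unadjusted p under 0.05, with a median of -0.45; DESeq2 called 3. For tRNA charging, 0 of 20 were called by edgeR or DESeq2, 2 were negative at an unadjusted p under 0.05 and 19 were below 0 (median -0.24, and -0.13 without WT WM1119 library 3). Among lysine acetyltransferases outside the KAT6A complex, 0 of 18 were called by either tool, 5 were positive and 1 negative at an unadjusted p under 0.05, and the median was 0.30 (0.20 without WT WM1119 library 3). Circadian and PAR bZIP genes had 0 of 17 called by either tool, 4 positive at an unadjusted p under 0.05 and a median of 0.30 (0.18 without WT WM1119 library 3). The 8 genes of the KAT6A and KAT6B complex had interactions from -0.53 for ING5 to 0.22 for MEAF6; 0 passed at an unadjusted p under 0.05. Of 28 PP2A subunit genes, edgeR and DESeq2 called 0, 1 passed at an unadjusted p under 0.05 and the median was -0.0039.

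Some lists had responses to WM1119 of the same sign in each line. Over all genes, the inhibitor raised 1.99% and lowered 2.65% in R183W cells, and raised 2.33% and lowered 2.53% in WT cells. YAP/TEAD targets had median responses of -0.50 in R183W cells, where 7 of 24 fell, and -0.48 in WT cells, where 4 fell, with an interaction median of -0.081. Interferon-stimulated genes had median responses of 0.69, with 7 of 29 raised, and 0.44, with 5 raised, and an interaction median of 0.12. Secreted cytokines and growth factors had -0.59, with 5 of 20 lowered, and -0.62, with 6 lowered and 1 raised, and an interaction median of 0.0046. In the interaction edgeR called 0 members of these 3 lists. At an unadjusted p under 0.05, 3, 1 and 2 were negative, against 5.20% of all genes. At the same threshold 1, 2 and 1 were positive, against 4.10%. DESeq2 called 1 YAP/TEAD target in each direction, 0 interferon-stimulated genes and 1 secreted factor. Cytosolic ribosomal proteins, 77 genes, had a median of 0.017 with 0 called by either tool and 0 at an unadjusted p under 0.05. Without WT WM1119 library 3 their median was -0.0895.

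**Figure D5:**
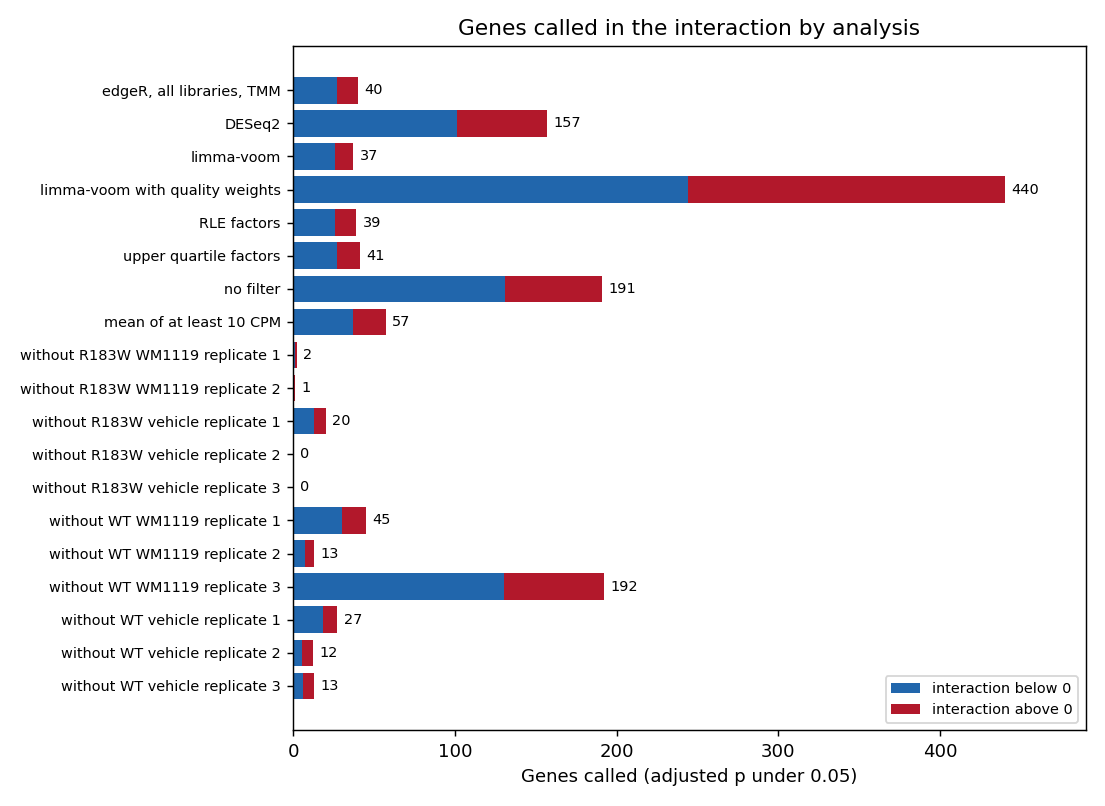
Number of genes called in the interaction (x axis, adjusted p under 0.05) by analysis (rows), with negative interactions in blue and positive in red. The replicate block, which gave 0 genes, and the cut at an absolute log2 interaction of at least 1 are not drawn. The count is 40 with all libraries in edgeR, 157 with DESeq2, 37 with limma-voom, 192 without WT WM1119 library 3, and 0 to 2 when a treated R183W library or the second or the third R183W vehicle library is left out.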

How the data were processed

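Gene expression was measured in 11 HEC50B libraries. The deposited table, made by the authors, holds expected counts, values estimated for each gene that were here all whole numbers. STAR, RSEM and hg19 stand in the submitters' processing notes; versions, roles, annotation and strandedness are not given in the sources used here, and the labels give polyA RNA as the molecule beside a ScriptSeq Complete Gold kit. Estimated counts divide reads between matching genes, so genes with close copies are uncertain. Of 57736 gene IDs, 51959 found a symbol in GENCODE 29 or RefSeq, and IDs without one held 0.955% to 1.12% of counts.

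Counts were rounded, filtered with filterByExpr (13980 genes, at least 99.73% of counts) and scaled with TMM. EdgeR 4.0.16 in R 4.3.3 fitted 4 group means over 11 libraries (quasi-likelihood F test, two-sided, Benjamini-Hochberg over 13980 genes, called at adjusted p under 0.05); the common biological coefficient of variation was 19.6%. The fit was tested on simulated data. CPM values are TMM-scaled. DESeq2 1.42.0, limma 3.58.1 (voom, with and without quality weights), other scalings and filters, a replicate block and each library left out served as alternatives. Groups came from the labels. Named genes were PPP2R1A, KAT6A and its complex, the 12 largest and the 12 smallest-p called genes in each direction (mean of at least 2 CPM in a group), called genes with opposite called responses, up to 6 called members of each list, and members of lists with at least 4 called genes. The genes and lists were chosen with earlier results of these data known. List members were counted without a set test. Some genes under this rule are not reported here.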

Additional observations from a re-analysis of the deposited data

Results flagged for a closer look

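The response to WM1119 differed between the 2 genotypes for 40 genes in edgeR's interaction test. Among them, 11 had a called response in each line with opposite signs. Of these, the genes described here that fell in R183W cells and rose in WT cells had log2 interactions of -1.79 (CDC6), -1.68 (E2F1), -1.67 (MCM7), -1.59 (MCM3), -1.56 (PKMYT1), -1.18 (MNS1) and -1.02 (COL1A1). Those that rose in R183W cells and fell in WT cells had 1.27 (SAT1), 1.41 (JAG1) and 2.01 (FN1). These genes were put forward because the difference between the lines was itself tested. The count of 40 became 0 when the second or the third R183W vehicle library was left out, and 0 with the replicate block. Each gene listed here thus lost its call in those fits. Groups had 3 or fewer libraries, so no library was tested for standing apart within its group.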

How the results depend on the processing

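Against 40 called genes, DESeq2 gave 157, limma-voom with quality weights 440 and edgeR without a filter on low counts 191, each holding all 40; limma-voom gave 37, RLE factors 39, upper quartile factors 41, a mean of at least 10 CPM 57 and an absolute log2 interaction of at least 1 gave 38. Quality weights gave WT WM1119 library 3 a weight of 0.26. The 11 genes with opposite called responses became 56 with quality weights and 21 without the filter. Licensing calls went from 4 to 11 (DESeq2), 14 (quality weights) and 12 (no filter), and fork calls from 4 to 8, 12 and 11. With a library left out, the ranges were 0 to 192 genes, 0 to 30 opposite responses, 0 to 11 licensing and 0 to 9 fork members. The cause was not tested. The replicate block gave 0 genes (1023 at an unadjusted p under 0.05, 462 positive and 561 negative), 0 opposite responses and 0 members of either list. Over 15 same-numbered pairs, deviations from group means correlated at -0.391 to 0.137, above 0.1 in 2, and 2 of 11 libraries correlated best with their own number. Deviations from means of 2 or 3 libraries sum to 0 within a group, so these correlations cannot decide whether numbers mark shared cultures. The labels do not say that they do, so the main fit had no block. No direction reversed: 33 called named genes kept the call in 361 of 627 alternative values and lost it in 266. Those genes were chosen by their calls and the alternatives share libraries, so the kept signs are not separate support. The medians of some lists, such as the matrix genes, did change sign. At these depths of 2609922 to 6065149 counts, genes near the counting floor are the least certain.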
